A study of Macaca mulatta with 8 samples.

Results

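Neuropilin 1 (NRP1), angiopoietin 1 (ANGPT1), angiopoietin-like 4 (ANGPTL4) and prokineticin 1 (PROK1) are 4 genes linked to blood vessel growth, out of 14132 genes measured. They were followed through all 10 probe sets whose platform annotation gave exactly 1 of these symbols, out of 52766 probe sets on the array. NRP1 had 3 probe sets, ANGPT1 had 4, ANGPTL4 had 2 and PROK1 had 1. The arrays were hybridised with RNA of rhesus macaque granulosa cells. The VVM-GC group (4 arrays) came from follicles of animals given follicle-stimulating hormone (FSH) and then human chorionic gonadotropin (hCG), a hormone that acts on the receptor of luteinizing hormone and serves as the ovulatory stimulus. The PM-GC group (4 arrays) came from follicles under FSH alone, so both groups carried the FSH stimulation. The labels call the source cumulus-oocyte complexes, while the series design calls the cells mural granulosa cells, those that line the follicle wall. The hCG dose, the time to collection, the animals' ages and the animal behind each array are not stated in the material used here. The 4 genes were selected on their measured log2 difference between VVM-GC and PM-GC, so their values in this comparison are a description and carry no test.

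The granulosa layer of a growing follicle holds no blood vessels. After the ovulatory surge the vessels of the surrounding theca grow into it, and the corpus luteum that forms is densely vascular. Vascular endothelial growth factor (VEGF) drives this growth through the receptors FLT1 and KDR. NRP1 is a membrane co-receptor that binds both VEGF and the class 3 semaphorins, which signal through plexins. ANGPT1 is a secreted ligand of the endothelial receptor TEK (also called TIE2) and is known for stabilising vessels. ANGPTL4 is a secreted protein that inhibits lipoprotein lipase, is induced by fatty acids through the PPAR nuclear receptors and by low oxygen, and has been linked to vessel permeability. PROK1, first described as a growth factor for endothelium of steroid-producing glands, acts on the receptors PROKR1 and PROKR2.

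Array medians lay between 5.44 and 5.54 on the log2 intensity scale, and none of the arrays duplicated another. Between arrays, Pearson's r over the 52766 probe sets ran from 0.975 to 0.984 within VVM-GC, from 0.984 to 0.988 within PM-GC and from 0.935 to 0.956 between the groups. The 3′ minus 5′ difference of ACTB, a measure of RNA integrity, was 4.77 ± 0.312 in VVM-GC and 4.75 ± 0.0523 in PM-GC (SD, n = 4, exact two-sided permutation p = 0.914). Within VVM-GC it was highest on array 3 (5.18) and lowest on array 1 (4.47). The difference was large on every array of both groups, so the like means do not show that the RNA was intact. The RNA was also amplified over repeated rounds before labelling, and the part of this step in the difference was not tested. Among the 11 measured granulosa markers, INHA and INHBA, subunits of inhibin and activin, averaged 13.50 and 11.12 in VVM-GC, against 14.07 and 12.76 in PM-GC. Of these 11 genes 9 fell, 1 rose (WT1) and 1 did not pass, while FSHR and FOXL2 had no probe set under their symbol and are not analysed here. Because these are bulk samples, fewer cells of a type and less RNA per cell cannot be told apart.

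Of the 10 probe sets, 7 were higher on every VVM-GC array than on any PM-GC array, 1 was lower on every VVM-GC array, and 2 overlapped. Over all 52766 probe sets the groups did not overlap for 19.3%, with 8.38% higher and 10.9% lower in VVM-GC. Since the choice of genes used this comparison, nothing is read from that contrast. The brightest probe set of each gene, the one with the highest mean over the 8 arrays, showed separate groups for all 4 genes. NRP1, ANGPT1 and ANGPTL4 were higher in VVM-GC and PROK1 was lower.

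**Figure D1:**
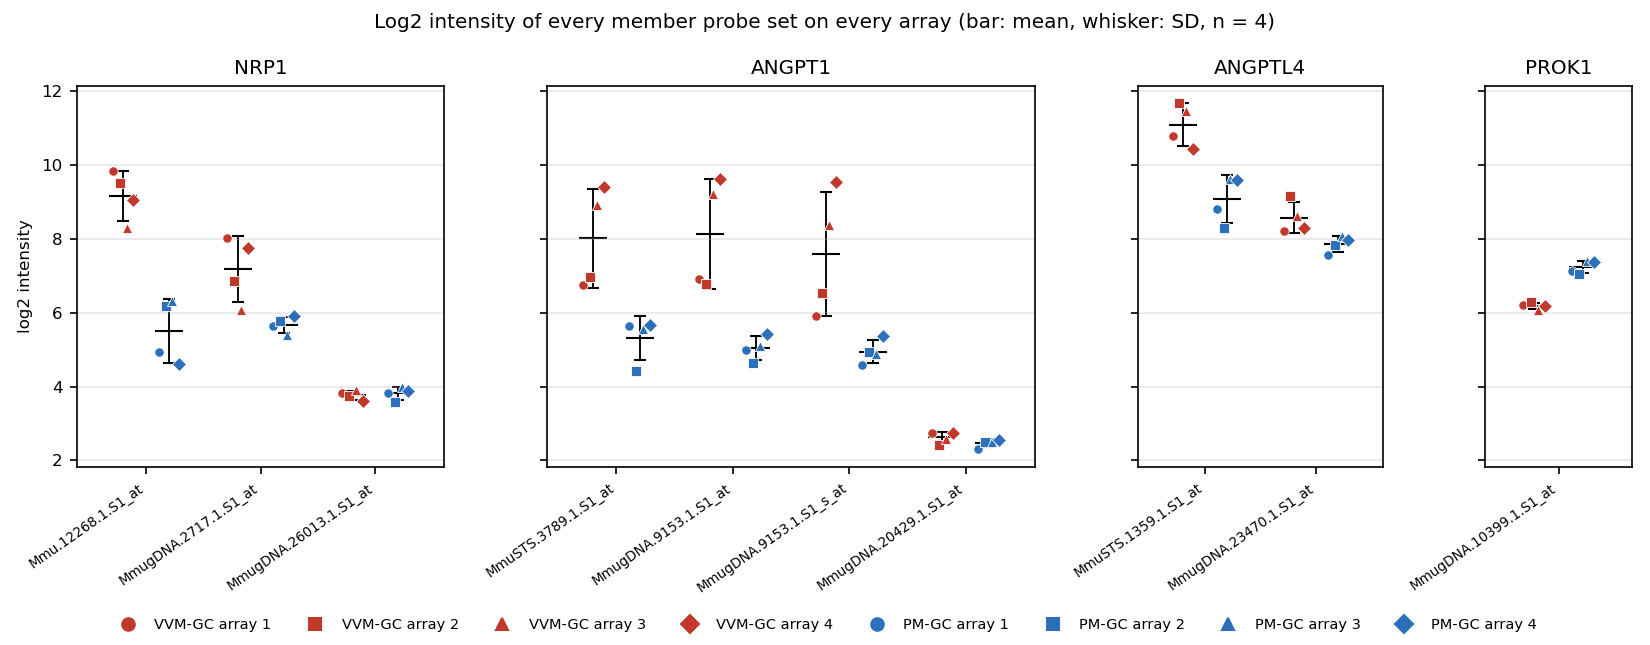
Log2 intensity (vertical axis) of each probe set (horizontal axis) on each VVM-GC array (red) and PM-GC array (blue); marker shapes give the array number, horizontal bars the mean and whiskers the SD (n = 4). Of the 10 probe sets, 3 of the 4 for ANGPT1 spread widest within VVM-GC, and the brightest NRP1 probe set (leftmost) has the widest gap between the groups (1.97).

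NRP1 showed the largest difference of the 4 genes when each gene was taken by its brightest probe set. The brightest NRP1 probe set read 9.84, 9.51, 8.28 and 9.05 on VVM-GC arrays 1 to 4, against 4.94, 6.19, 6.31 and 4.61 on PM-GC arrays 1 to 4. Every VVM-GC array lay above every PM-GC array, with a gap of 1.97 between the lowest of the one and the highest of the other. The means were 9.17 ± 0.67 in VVM-GC and 5.51 ± 0.86 in PM-GC (SD, n = 4), a log2 difference of 3.66 (SE 0.44) or 12.6-fold. Among 14132 genes, each taken by its brightest probe set, 83 had a larger increase.

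The other NRP1 probe sets differed from this one. MmugDNA.2717.1.S1_at read 8.02, 6.87, 6.06 and 7.76 in VVM-GC, against 5.63, 5.77, 5.39 and 5.91 in PM-GC. The groups were separate by only 0.15, and the log2 difference was 1.50 (SE 0.37), a 2.83-fold higher signal in VVM-GC. MmugDNA.26013.1.S1_at stayed between 3.60 and 3.90 in VVM-GC and between 3.58 and 3.99 in PM-GC, below the median of every array. Its groups overlapped, with a difference of -0.06 (SE 0.12). The average over the 3 probe sets was 1.70 higher in VVM-GC. That was less than the 2.15 of ANGPT1 averaged over all its probe sets. The files do not say which part of the NRP1 transcript each probe set reads.

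VVM-GC array 3 gave the lowest NRP1 signal of its group in both responding probe sets, and array 1 gave the highest. Deviations of the arrays from their group means correlated between these probe sets at only r = 0.343 over 8 arrays. In PM-GC, array 3 was highest in the brightest probe set and lowest in MmugDNA.2717.1.S1_at, and array 4 the reverse. Other measures also had VVM-GC arrays 1 and 3 as the extremes of the group. On array 3 the ACTB difference was highest and on array 1 lowest, as given above. The mean log2 signal of 8 leukocyte markers was 5.54 on array 3 and 6.83 on array 1, with a range of 5.54 to 6.83 in VVM-GC and 6.56 to 6.82 in PM-GC. The mean of 11 endothelial markers was 5.37 on array 3 and 5.77 on array 1, against 5.44 to 5.63 in PM-GC. VWF, a clotting protein of endothelium, read 9.10, 6.80, 5.88 and 7.58 on VVM-GC arrays 1 to 4, against 5.77 to 6.29 in PM-GC. The part of these measures in the NRP1 values was not tested. Without VVM-GC array 3 the NRP1 difference of the brightest probe set was 3.95, and without VVM-GC array 1 it was 3.43.

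Of the endothelial markers, none of 11 passed limma's threshold of 0.05 on the Benjamini-Hochberg adjusted p, also with its trend and robust options. At an unadjusted p under 0.05, 1 was higher and 1 lower. PECAM1, an adhesion molecule of endothelium and leukocytes, averaged 6.71 ± 0.69 in VVM-GC and 6.70 ± 0.34 in PM-GC (adjusted p = 0.985). CDH5, the cadherin of endothelial junctions, differed by -0.27 (95% interval -0.60 to 0.07). EGFL7, secreted by endothelium, differed by -0.04 (-0.37 to 0.30). VWF differed by 1.26 (adjusted p = 0.138), but passed without VVM-GC array 3 (1.74, adjusted p = 0.0217). Of 8 leukocyte markers 1 fell, CSF1R, the receptor of macrophage growth factor (log2 difference -2.09, adjusted p = 0.000152). The other 7 did not pass, though CD68, a macrophage protein, was near the threshold in its brighter probe set (0.84, adjusted p = 0.0502), while its other probe set differed by -0.62 and passed over all probe sets. The table holds no detection calls and no zeros, so no marker can be called absent.

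The partners of NRP1 were read from gene lists, with 1 probe set per gene and a test over all 14132 genes. Of these, 23.8% passed the threshold, 11.3% higher and 12.5% lower in VVM-GC. In the list of VEGF ligands and receptors, 6 of 9 genes were measured, of which 1 rose, none fell and 5 did not pass (median log2 difference -0.17, against -0.09 over all genes). At an unadjusted limma p under 0.05, 2 were lower, and 0 were with the trend and robust options. VEGFA, VEGFC and VEGFD had no probe set under their symbol and are not analysed here, which leaves out the main ligand. PGF, placental growth factor, a ligand of FLT1 and NRP1, read 7.48, 7.17, 6.31 and 6.92 in VVM-GC, against 6.14, 6.15, 6.03 and 6.01 in PM-GC. It rose 1.85-fold (adjusted p = 0.0161). Its lowest VVM-GC array was also array 3.

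KDR and FLT1 gave signals below the array medians, and none of the VEGF receptors passed. KDR averaged 3.81 ± 0.14 in VVM-GC and 3.95 ± 0.11 in PM-GC, a difference of -0.14 (95% interval -0.40 to 0.12). FLT1 differed by -0.10 (-0.36 to 0.16) and NRP2, the paralog of NRP1, by -0.21 (-0.56 to 0.14). FLT4, the receptor of VEGFC, differed by -0.30 (adjusted p = 0.0847). VEGFB averaged 10.05 ± 0.37 in VVM-GC and 10.59 ± 0.12 in PM-GC and did not pass (adjusted p = 0.0564), but did so without VVM-GC array 3 (-0.68, adjusted p = 0.0125) and after repeated quantile normalization (adjusted p = 0.0285).

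Plexins moved in both directions, while none of 5 class 3 semaphorins passed in limma, 2 being higher at an unadjusted p under 0.05 and 0 passing with the trend and robust options. Of 11 measured genes among 13 listed, 1 rose, 2 fell and 8 did not pass (27.3% called, median -0.11). PLXND1, the plexin of endothelium and receptor of SEMA3E, read 6.94, 6.99, 7.17 and 6.35 in VVM-GC, against 8.59, 9.40, 8.55 and 8.69 in PM-GC. It fell 3.85-fold (log2 difference -1.95, SE 0.23, adjusted p = 0.000293). PLXNA3, which pairs with neuropilins, rose 1.95-fold (log2 difference 0.97, adjusted p = 0.000937), through 1 of its 2 probe sets, and their average rose by 0.51. PLXNA1 fell by 0.66 (adjusted p = 0.0196), through 1 of 3 probe sets. The PLXNA1 call was lost without VVM-GC array 1 (adjusted p = 0.0504), PM-GC array 1 (0.0553) or PM-GC array 2 (0.0521), and with all its probe sets averaged (-0.07, adjusted p = 0.729).

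SEMA3A, the best known semaphorin ligand of NRP1, averaged 7.13 ± 0.41 in VVM-GC and 6.41 ± 0.51 in PM-GC (adjusted p = 0.0876). It passed with its 3 probe sets averaged (0.67, adjusted p = 0.0367). SEMA3C averaged 11.63 ± 0.40 in VVM-GC and 11.03 ± 0.37 in PM-GC, a difference of 0.60 (0.07 to 1.13, adjusted p = 0.0990). SEMA3B, SEMA3D and SEMA3F, other ligands of neuropilins, differed by 0.13, -0.19 and -0.20. PLXNA2 and PLXNA4 differed by 0.34 and -0.11, and GIPC1, a scaffold that binds the tail of NRP1, by -0.14.

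**Figure D2:**
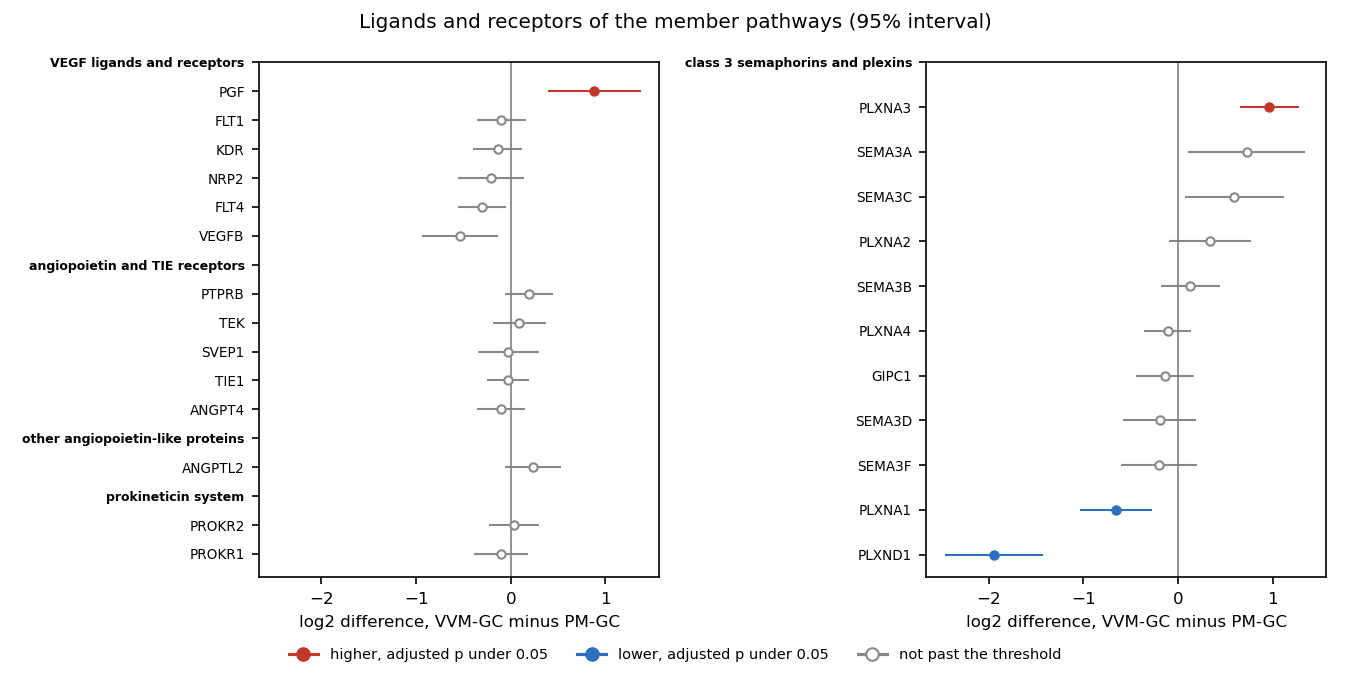
Log2 difference, VVM-GC minus PM-GC (horizontal axis), with its 95% interval for each measured gene of 5 lists; filled red points passed as higher, filled blue points as lower, and open points did not pass. PGF and PLXNA3 rose, PLXNA1 and PLXND1 fell, and the intervals of KDR, FLT1, TEK, PROKR1 and PROKR2 include 0.

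ANGPT1 was higher in VVM-GC in 3 of its 4 probe sets, and its signal varied more among VVM-GC arrays than that of the other 3 genes. The brightest, MmuSTS.3789.1.S1_at, read 6.76, 6.98, 8.92 and 9.42 on VVM-GC arrays 1 to 4, against 5.63, 4.43, 5.57 and 5.66 on PM-GC arrays 1 to 4. All VVM-GC arrays lay above the PM-GC arrays, by at least 1.10, and VVM-GC arrays 3 and 4 lay well above arrays 1 and 2. The means were 8.02 ± 1.34 in VVM-GC and 5.32 ± 0.60 in PM-GC (SD, n = 4), a log2 difference of 2.70 (SE 0.58) or 6.49-fold. The SD within VVM-GC was larger than that of 99.5% of genes, whose median was 0.21.

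The probe sets MmugDNA.9153.1.S1_at and MmugDNA.9153.1.S1_s_at carry the same design number and may read overlapping sequence. Both had VVM-GC arrays 3 and 4 on top, as in the brightest probe set. MmugDNA.9153.1.S1_at read 6.92, 6.78, 9.21 and 9.63 in VVM-GC, against 5.00, 4.64, 5.11 and 5.44 in PM-GC. Its log2 difference was 3.09 (SE 0.61), or 8.51-fold. MmugDNA.9153.1.S1_s_at read 5.90, 6.53, 8.36 and 9.54 in VVM-GC, against 4.59, 4.93, 4.89 and 5.37 in PM-GC, a difference of 2.64 (SE 0.67). The deviations of the arrays from their group means followed each other across these probe sets, with Pearson r of 0.890 to 0.960 over 8 arrays for the 3 pairs, as a description. The probe sets share the arrays and the RNA.

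MmugDNA.20429.1.S1_at, the fourth ANGPT1 probe set, stayed between 2.43 and 2.75 in VVM-GC and between 2.30 and 2.55 in PM-GC. These values lie far below the array medians and the groups overlapped, with a difference of 0.17 (SE 0.11). On PM-GC arrays the brightest ANGPT1 probe set was above the array median on 3 of 4 arrays and the MmugDNA.9153 probe sets on none. Folds of signals this low move with the background correction. The 3 responding probe sets had differences of 2.04, 2.32 and 1.91 after an offset of 32 was added before log2.

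The receptor side of ANGPT1 gave no call. Of 5 measured genes among 6 listed, none passed (median -0.03), and ANGPT2, the ligand that antagonises ANGPT1, is not analysed here. With limma the count was also 0 at an unadjusted p under 0.05, and 0 with limma's trend and robust options. TEK averaged 5.96 ± 0.22 in VVM-GC and 5.87 ± 0.02 in PM-GC, a difference of 0.09 (95% interval -0.19 to 0.37). TIE1, the partner receptor of TEK, differed by -0.03 (-0.25 to 0.20), and ANGPT4, another TEK ligand, by -0.11 (-0.36 to 0.15). PTPRB, a phosphatase that dampens TEK, differed by 0.19 (-0.06 to 0.45), and SVEP1, an extracellular protein that binds TIE1, by -0.03 (-0.35 to 0.30).

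ANGPT1 is made by pericytes and stromal cells in many tissues, and 1 marker of these cells was higher in VVM-GC. Of 9 measured pericyte and stromal markers, 1 rose, 1 fell and 7 did not pass (22.2% called). The mean log2 signal over the list was 6.83 to 7.35 in VVM-GC and 6.75 to 6.97 in PM-GC. KCNJ8, a potassium channel subunit of pericytes, read 6.61, 8.49, 9.85 and 7.62 on VVM-GC arrays 1 to 4, against 5.33, 6.16, 5.44 and 5.36 in PM-GC. It rose 5.94-fold (adjusted p = 0.00987). Its highest VVM-GC array was array 3, whereas ANGPT1 was highest on array 4 in all 3 responding probe sets.

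COL3A1, a fibrillar collagen, followed the order of the brightest ANGPT1 probe set on VVM-GC arrays over a much smaller range. It read 6.35, 6.68, 6.71 and 6.82, against 6.60, 6.60, 7.01 and 6.96 in PM-GC (adjusted p = 0.504). No other of the 9 measured markers followed that order, and COL3A1 was named after its values were seen. COL1A2, another collagen gene of the list, ran in the opposite order, at 8.01, 7.62, 7.09 and 6.68 (adjusted p = 0.294). Its PM-GC values were 8.04, 7.94, 8.21 and 7.17. DCN, the proteoglycan decorin, read 9.52, 7.83, 9.63 and 8.89 on VVM-GC arrays, against 7.96, 8.15, 7.95 and 8.15 in PM-GC (adjusted p = 0.0844, or 0.00168 without VVM-GC array 2). CSPG4, a pericyte proteoglycan, averaged 8.04 ± 0.12 in VVM-GC and 8.28 ± 0.21 in PM-GC (adjusted p = 0.232). MCAM, an adhesion molecule, fell by 0.71 (adjusted p = 0.0378). The MCAM call was lost without VVM-GC array 1 or 4 and without PM-GC array 2, 3 or 4 (adjusted p = 0.0554 to 0.0850), and with 32 added (0.0524). The part of these cells in the ANGPT1 values was not tested.

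ANGPTL4 was higher in VVM-GC in both of its probe sets. The brighter one, MmuSTS.1359.1.S1_at, read 10.78, 11.67, 11.47 and 10.44 on VVM-GC arrays 1 to 4, against 8.82, 8.28, 9.63 and 9.59 on PM-GC arrays 1 to 4. The groups were separate by 0.82, with VVM-GC array 4 and PM-GC array 3 nearest to each other. The means were 11.09 ± 0.58 in VVM-GC and 9.08 ± 0.65 in PM-GC (SD, n = 4), a log2 difference of 2.01 (SE 0.35) or 4.04-fold. All 8 arrays were above their median, and adding 32 to each intensity moved the difference only to 1.95.

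The second ANGPTL4 probe set, MmugDNA.23470.1.S1_at, read 8.21, 9.16, 8.63 and 8.30 in VVM-GC, against 7.57, 7.83, 8.08 and 7.97 in PM-GC. Again no array overlapped, but the gap was 0.13 and the difference was 0.71 (SE 0.21), or 1.64-fold. Within VVM-GC both probe sets were highest on array 2 and next on array 3. The average of both gave a difference of 1.36. ANGPTL2, the one other angiopoietin-like gene measured of 7 listed, averaged 5.65 ± 0.24 in VVM-GC and 5.42 ± 0.07 in PM-GC (adjusted p = 0.243).

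**Figure D3:**
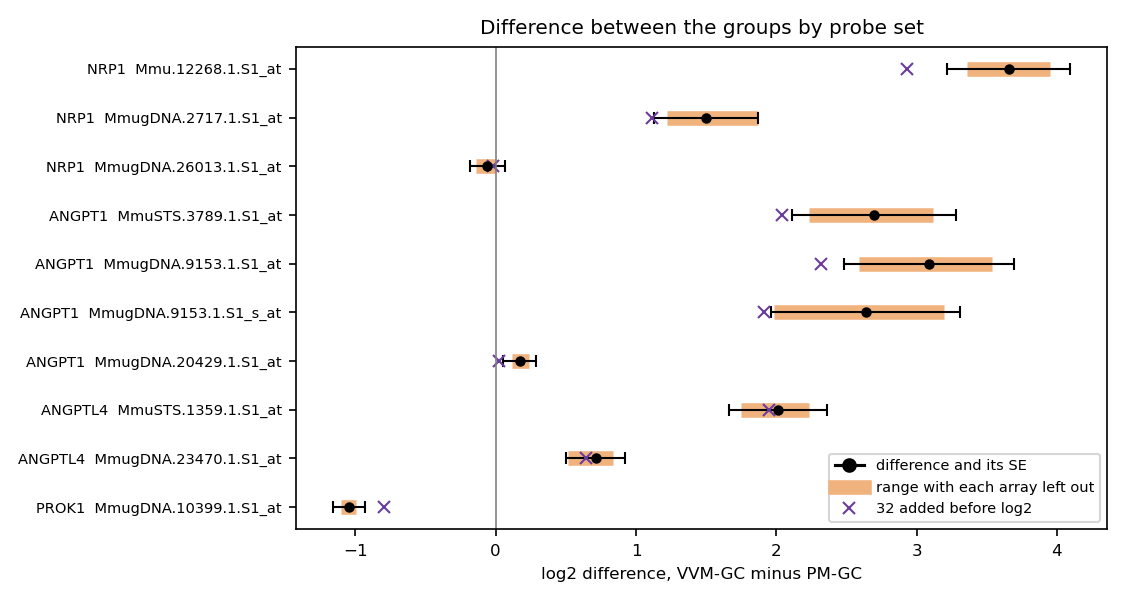
Log2 difference, VVM-GC minus PM-GC (horizontal axis), for each of the 10 probe sets (rows): black points with SE, orange bars for the range when each array is left out in turn, crosses for the value with 32 added before log2. NRP1 and ANGPT1 each have 1 probe set near 0, and the brightest NRP1 probe set lies at 3.66.

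Genes of the lipase and PPAR side of ANGPTL4 moved in both directions. Of 17 measured among 23 listed, 4 rose, 2 fell and 11 did not pass (35.3% called, median 0.23). Without VVM-GC array 3, 6 rose and 4 fell. The lower count was 1 with the replicate block, with the filter on low signals, and without VVM-GC array 1 or 4 or PM-GC array 2 or 4. PCSK5, a proprotein convertase of the family known to cleave human ANGPTL4, averaged 10.30 ± 0.56 in VVM-GC and 4.97 ± 0.42 in PM-GC. It rose 40.1-fold (adjusted p = 3.96e-06) in its brightest probe set, while its other probe set differed by -0.21, and their average by 2.56. CD36, a fatty acid receptor and PPAR target, read 6.70, 5.75, 5.18 and 5.51 in VVM-GC, against 3.87, 3.74, 3.86 and 3.98 in PM-GC. It rose 3.79-fold (log2 difference 1.92, adjusted p = 0.000912). All its PM-GC values lay below the array medians, and with 32 added the difference was 0.93 (adjusted p = 0.0122).

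LMF2, a relative of the lipase maturation factor, rose 2.18-fold (adjusted p = 0.00048), and PPARD, a PPAR known to induce ANGPTL4, rose 1.49-fold (adjusted p = 0.00481). LIPC, hepatic lipase, fell by 0.63 (adjusted p = 0.00734; by 0.27 with 32 added), and FABP3, a fatty acid binding protein, fell by 1.27 (adjusted p = 0.0234). The FABP3 call was lost without VVM-GC array 1 or 4 or PM-GC array 2 or 4 (adjusted p = 0.0517 to 0.0705) and with the replicate block (adjusted p = 0.0504). LPL, the lipase that ANGPTL4 inhibits, averaged 7.84 ± 0.34 in VVM-GC and 7.35 ± 0.19 in PM-GC (adjusted p = 0.0807). The 4 LPL probe sets differed by 0.42 to 1.35, and none passed over all probe sets. PPARG averaged 10.54 ± 0.66 in VVM-GC and 11.36 ± 0.47 in PM-GC (adjusted p = 0.111).

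In the hypoxia response list, 13 of 20 genes were measured, of which 5 rose, none fell and 8 did not pass (38.5% called, median 0.46). At an unadjusted limma p under 0.05, 1 was lower, and 0 were with the trend and robust options. That gene was P4HA1, which differed by -0.62 (adjusted p = 0.103). Its other probe set differed by -1.39 and passed as lower over all probe sets. HIF1A, the founding oxygen-regulated subunit, is not analysed here. EPAS1, which encodes the related subunit HIF-2α, read 9.58, 8.99, 8.40 and 10.12 in VVM-GC, against 6.52, 5.70, 5.83 and 5.55 in PM-GC. It rose 10.4-fold (adjusted p = 0.00014) in 1 of 2 probe sets, the other differing by -0.05. LOX, a collagen cross-linking enzyme, rose by 3.06 (SE 0.79, adjusted p = 0.0196) and varied widely, at 10.81 ± 1.46 in VVM-GC and 7.76 ± 1.33 in PM-GC. Its groups overlapped, with PM-GC array 1 (9.70) above VVM-GC arrays 1 (9.47) and 2 (9.64). ADM, adrenomedullin, a vasodilator peptide, rose 3.28-fold (adjusted p = 0.018), and KDM3A, a histone demethylase, rose 1.71-fold (adjusted p = 0.0226). The remaining gene to rise was EGLN2, by 0.48 (adjusted p = 0.0275), with 1 of its 5 probe sets higher.

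Some of these calls were lost at a similar size of the difference when an array was left out. The LOX call was lost without PM-GC array 2, 3 or 4 (log2 difference 2.71 to 2.94, adjusted p = 0.0542 to 0.0588). The ADM call was lost without PM-GC array 2 (1.55, adjusted p = 0.0512). The KDM3A call was lost without VVM-GC array 1 or PM-GC array 1 or 2 (0.72 to 0.74, adjusted p = 0.0575 to 0.0636) and with averaged probe sets (0.36, adjusted p = 0.0601). With averaged probe sets the differences of EPAS1 and LOX were 1.66 and 1.83, both still called. The count of 5 was 3 with averaged probe sets, 2 without PM-GC array 2, and 3 without VVM-GC array 1, PM-GC array 1 or PM-GC array 3. The count of 0 lower was 1 after repeated quantile normalization, with the replicate block, with averaged probe sets and without VVM-GC array 3 or 4. SLC2A1 and PDK1, targets of hypoxia in sugar metabolism, differed by 0.57 (95% interval -0.32 to 1.47) and 0.28 (-0.14 to 0.70), and CA9, a carbonic anhydrase, by -0.77 (-1.59 to 0.06).

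PROK1 was the one gene of the 4 that was lower in VVM-GC, and its arrays lay closest together. Its only probe set, MmugDNA.10399.1.S1_at, read 6.22, 6.28, 6.08 and 6.19 on VVM-GC arrays 1 to 4, against 7.13, 7.06, 7.39 and 7.37 on PM-GC arrays 1 to 4. Every VVM-GC array lay below every PM-GC array, by at least 0.78. The means were 6.19 ± 0.08 in VVM-GC and 7.24 ± 0.17 in PM-GC (SD, n = 4), a log2 difference of -1.04 (SE 0.11), or 2.06-fold lower. The SD within VVM-GC was larger than that of only 7.84% of genes. Among 14132 genes, 585 had a larger decrease.

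Neither receptor of PROK1 passed in limma, with a count of 0 also at an unadjusted p under 0.05 and with the trend and robust options. PROKR1 averaged 6.23 ± 0.07 in VVM-GC and 6.33 ± 0.22 in PM-GC, a difference of -0.10 (95% interval -0.39 to 0.19), and PROKR2 differed by 0.04 (-0.23 to 0.30). PROK2, the related ligand, is not analysed here.

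The 4 genes did not follow one order over the VVM-GC arrays. In the brightest probe sets NRP1 was highest on array 1, ANGPT1 on array 4, and ANGPTL4 and PROK1 on array 2. Array 3 gave the lowest NRP1 and PROK1 signals but the second highest ANGPT1 and ANGPTL4 signals. In PM-GC, array 2 gave the lowest ANGPT1, ANGPTL4 and PROK1 signals and the second highest NRP1 signal. The spread was also unequal. The SD of NRP1 and ANGPTL4 exceeded that of 95.4% and 92.9% of genes in VVM-GC, and of 99.4% and 98.3% of genes in PM-GC.

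The genes with the most similar profile were found from the root mean square difference of log2 values over the 8 arrays, each gene centred on its own mean, among the 14128 other genes. Nearest to NRP1 were STAR, the carrier of cholesterol into mitochondria (0.43), CLDN1, a tight junction protein (0.46), and TMEM132C, a membrane protein (0.47). A flat profile would lie 1.95 from NRP1. STAR read 13.05, 13.11, 11.99 and 11.90 in VVM-GC, against 8.14, 9.62, 9.12 and 8.79 in PM-GC. Like the brightest NRP1 probe set, STAR was lower on VVM-GC arrays 3 and 4 than on arrays 1 and 2. The NRP1 probe set MmugDNA.2717.1.S1_at was instead higher on array 4 (7.76) than on array 2 (6.87).

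Nearest to ANGPT1 were ADGRG2, an adhesion G protein-coupled receptor (0.41), LOC697670 (0.47) and CTTNBP2, a cortactin-binding protein (0.48), where a flat profile would lie at 1.62. ADGRG2 read 6.67, 6.37, 8.73 and 8.30 in VVM-GC, against 4.78, 4.69, 5.30 and 5.23 in PM-GC. All 3 genes, chosen for their likeness to ANGPT1, were higher on VVM-GC arrays 3 and 4 than on arrays 1 and 2. For ANGPTL4 the nearest were SSB, an RNA-binding protein (0.38), DIRAS3, a small GTPase (0.40), and REPS1, an endocytic adaptor (0.40), with a flat profile at 1.14.

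Nearest to PROK1 were RAD54L, a DNA repair helicase (0.11), MPHOSPH9, a centriole protein (0.12), and CENPE, a mitotic kinesin (0.12), with a flat profile at 0.53. These 3 genes fell, with log2 differences of -1.11, -0.998 and -1.15. For all 4 genes the difference between the groups makes up most of the profile, so likeness reflects it as well as the variation among arrays of a group. As the nearest genes were chosen by this likeness, the array orders they share with the 4 genes are no separate finding.

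**Figure D4:**
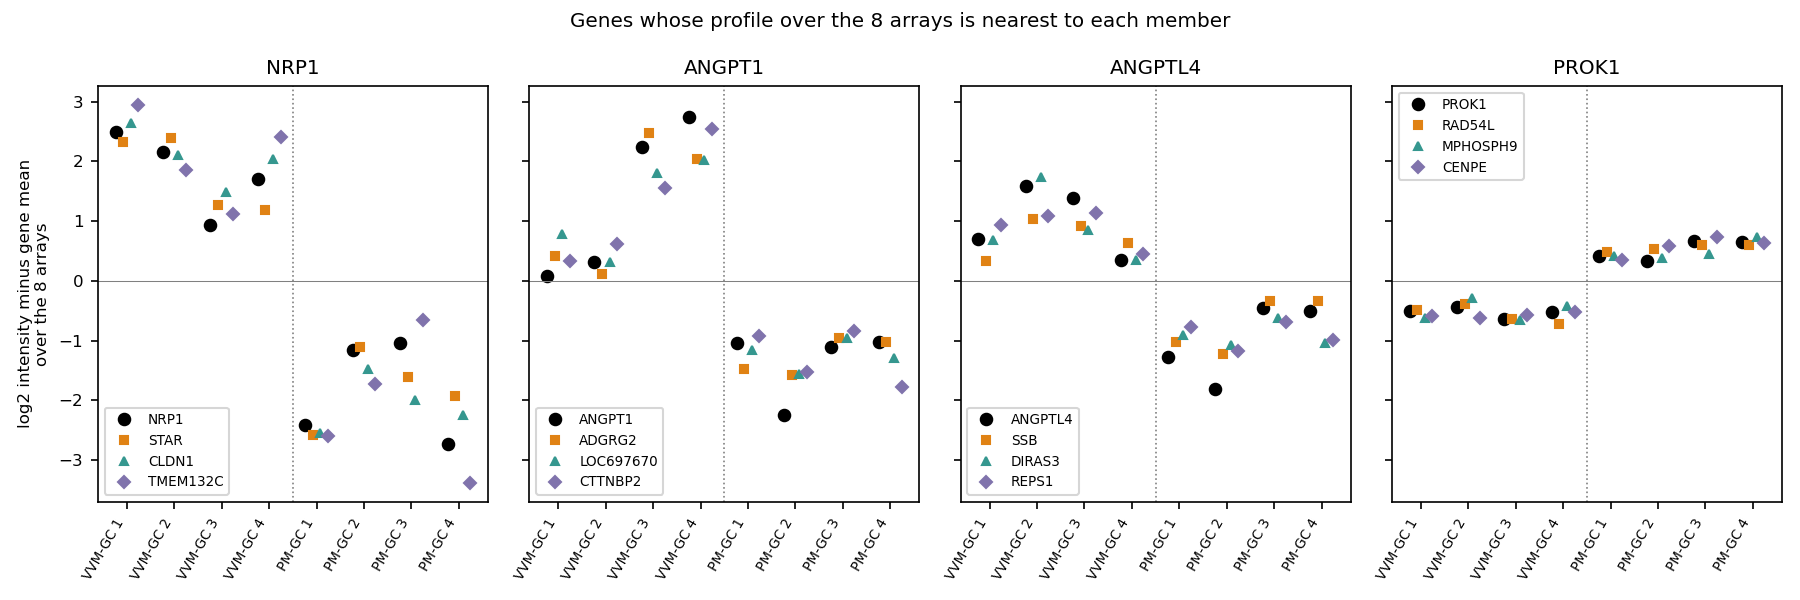
Log2 intensity minus the gene's mean over the 8 arrays (vertical axis) on each array (horizontal axis; VVM-GC left, PM-GC right of the dotted line) for each of the 4 genes (black circles) and the 3 genes with the nearest profile (coloured). ADGRG2, LOC697670 and CTTNBP2, chosen by this nearness, share the higher values of ANGPT1 on VVM-GC arrays 3 and 4.

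Other growth factors and their receptors moved in both directions. Of 20 measured among 33 listed, 2 rose, 2 fell and 16 did not pass (20% called, median -0.02). With averaged probe sets 5 fell. FGFR2, a fibroblast growth factor receptor, averaged 6.20 ± 0.36 in VVM-GC and 9.33 ± 0.62 in PM-GC. It fell 8.73-fold (adjusted p = 9.06e-05), with 3 of its 7 probe sets lower, and its average over them fell by 0.82. S1PR3, a receptor of sphingosine 1-phosphate, fell 3.94-fold (log2 difference -1.98, adjusted p = 0.000733) in 1 of 2 probe sets, the other differing by -0.27 and their average by -1.12. PDGFA, a platelet-derived growth factor chain, rose 3.48-fold (adjusted p = 0.00167). MET, the receptor of hepatocyte growth factor, rose 4.01-fold (adjusted p = 0.0392) in the brightest of its 5 probe sets, none of which passed when all probe sets were tested. With averaged probe sets its log2 difference was 0.63 (adjusted p = 0.0399). The MET call was lost when any of VVM-GC arrays 1 to 3 or PM-GC arrays 1, 2 or 4 was left out (adjusted p = 0.0561 to 0.108), and with 32 added (0.0610).

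In the list of angiogenesis inhibitors, 14 of 16 genes were measured, of which 5 rose, 2 fell and 7 did not pass (50% called, median 0.01). The list takes the thrombospondins together, and whether each of them restrains vessel growth was not examined. THBS4, a thrombospondin, averaged 7.84 ± 1.03 in VVM-GC and 4.71 ± 0.15 in PM-GC and rose 8.78-fold (adjusted p = 0.000618). SERPINF1, pigment epithelium-derived factor, rose 4.74-fold (log2 difference 2.25, adjusted p = 6.71e-05), or by 1.45 with 32 added. THBS1, a thrombospondin that binds CD36, rose 2.22-fold (adjusted p = 0.00176), with 3 of 5 probe sets higher and increases up to 2.29 on the log2 scale. COL18A1, the collagen that yields endostatin, rose by 0.99 (adjusted p = 0.0319). The COL18A1 call was lost with 32 added, after repeated quantile normalization, with averaged probe sets, and without VVM-GC array 1, 2 or 4 or PM-GC array 3 or 4 (adjusted p = 0.0504 to 0.149). VASH1, vasohibin, fell by 1.10 (adjusted p = 0.00244), or by 0.45 with averaged probe sets. TNNI2, a troponin subunit, fell by 0.77 (adjusted p = 0.00394), or by 0.47 with 32 added.

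Over all 9 pathway lists, without the 4 genes themselves, 89 of 130 genes were measured, of which 18 rose, 8 fell and 63 did not pass. The share called was 29.2%, against 23.8% over all genes, and the median difference was 0.02, against -0.09. With each array left out in turn, 14 to 20 of the 89 rose and 6 to 12 fell.

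**Figure D5:**
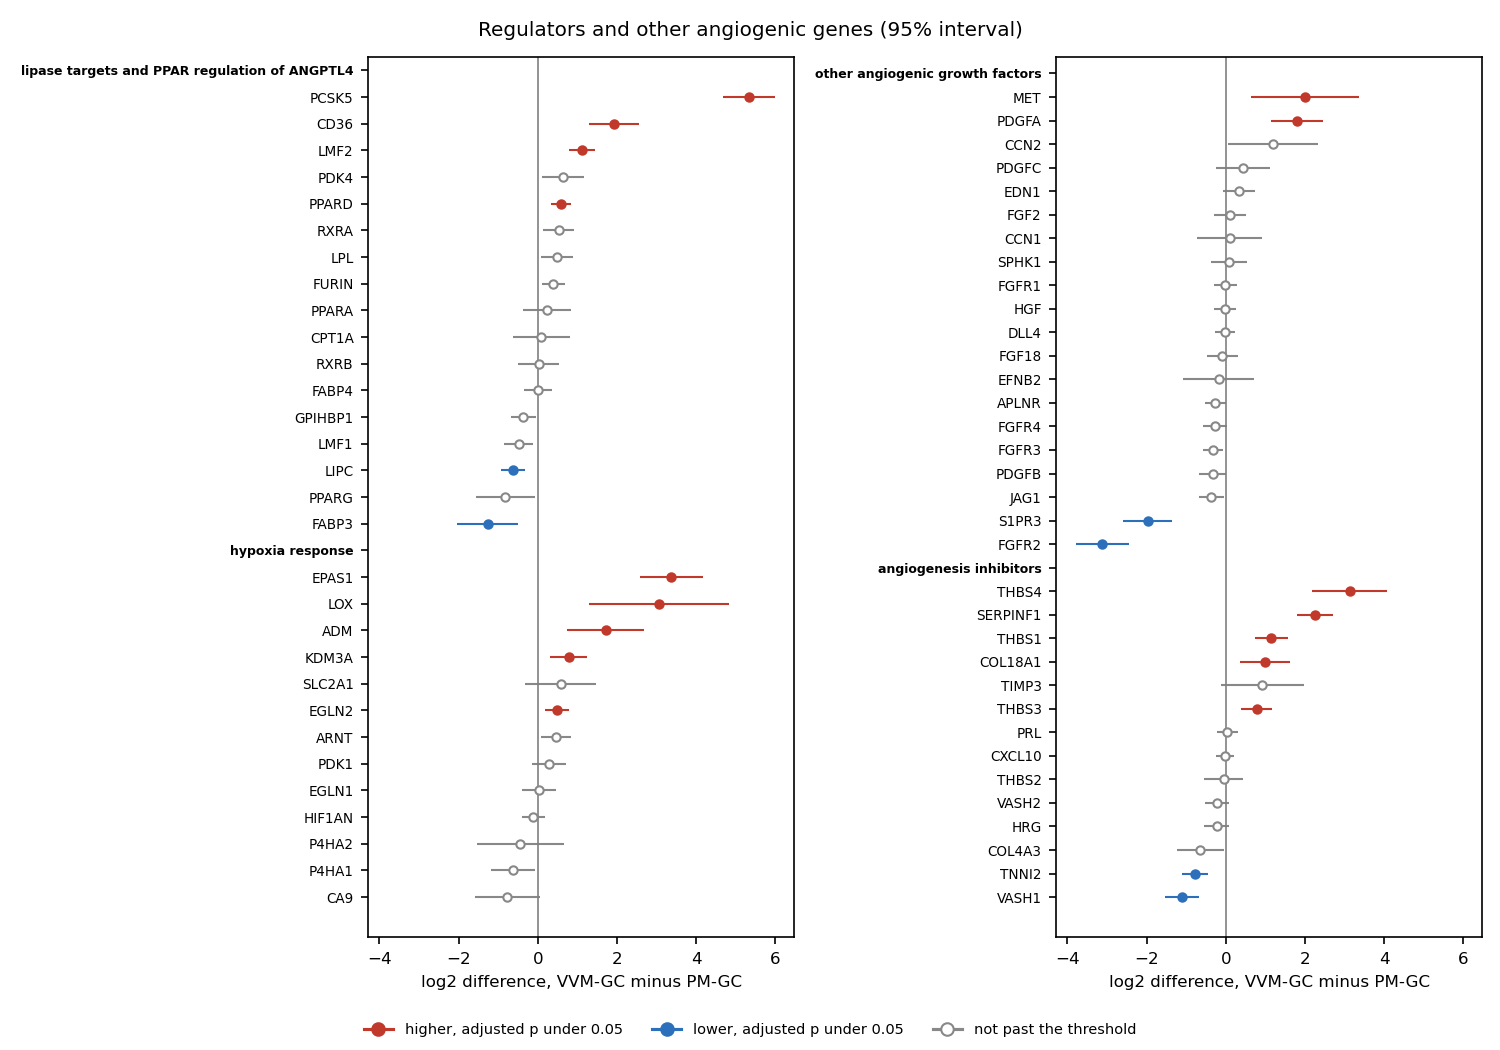
Log2 difference, VVM-GC minus PM-GC (horizontal axis), with its 95% interval for each measured gene of 4 lists; filled red points passed as higher, filled blue points as lower, and open points did not pass. PCSK5 and EPAS1 lie farthest to the right in the left panel, and FGFR2 farthest to the left in the right panel.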

How the data were processed

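The deposited table holds intensity values that the authors made with Affymetrix Expression Console and RMA (robust multi-array average), per the submitters' processing notes, which name no version. Per the labels' protocols the RNA was amplified linearly over repeated rounds before biotin labelling. The only change made to these linear values was to take log2. Of 52865 rows, 99 array controls were left out. GEO's platform annotation gave 1 symbol to 24956 probe sets, of which 24616 carried a gene ID listed by RefSeq and took the RefSeq symbol; no probe set with several symbols held one of the 4 genes. Probe sets were matched to genes by annotation only.

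Groups were compared as VVM-GC minus PM-GC with lmFit and eBayes of limma 3.58.1, run in R 4.3.3, over all 52766 probe sets for the 4 genes' standard errors, and over 14132 genes, each by its brightest probe set, for the lists. P-values were adjusted by Benjamini-Hochberg over all genes, with a threshold of 0.05. The procedure was tested on simulated data. Nothing says that arrays come from separate animals, so p-values measure only the spread between these samples, which may be technical; the number of arrays limits the precision, and the smallest exact permutation p for 4 against 4 is 0.0286. No batch is given.

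The 4 genes and the gene lists were chosen with earlier results of these data known. Genes named are the measured ligands and receptors and up to 4 called genes per direction of the other lists. They also include the 3 brightest and all called genes of marker lists, and the 3 nearest profiles. CDH5, COL1A2, COL3A1, LPL, PPARG, EGLN2, P4HA1, SLC2A1, PDK1 and CA9 were added after their values were seen. Alternatives were an offset of 32, repeated quantile normalization, median centring, averaged probe sets, a filter on low signals, limma's trend and robust options, a replicate block, and each array left out.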

Additional observations from a re-analysis of the deposited data

Results flagged for a closer look

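Among 186 groups of 4 arrays examined for the named genes and the 10 probe sets, 11 (5.91%) held 1 array far from the other 3, with Dixon's ratio above its 95% critical value. Chance gives about 1 in 20. Of the probe sets of the 4 genes, only ANGPT1 MmuSTS.3789.1.S1_at was among them, with PM-GC array 2 at 4.43 and the others at 5.57 to 5.66 (log2 intensity). Without that array its difference between the groups was 2.40 in place of 2.70.

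PM-GC array 2 also stood apart for PLXND1 (9.40, others 8.55 to 8.69), PDGFA (7.12, others 5.70 to 5.89), KCNJ8 (6.16, others 5.33 to 5.44) and EGFL7 (6.33, others 6.76 to 6.82). PM-GC array 3 stood apart for SEMA3A (5.65, others 6.59 to 6.73). VVM-GC array 1 did so for ANGPT4 (6.27, others 6.55 to 6.59), MCAM (7.99, others 8.64 to 8.75) and GLI1, a hedgehog target (6.65, others 6.45 to 6.48). VVM-GC array 3 was low for PTCH1, the hedgehog receptor (5.79, others 6.88 to 7.01), and VVM-GC array 2 was high for INHA (13.77, others 13.37 to 13.43).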

How the results depend on the processing

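Of the named genes run through the alternatives, none had a called direction that reversed, and the 10 probe sets of the 4 genes kept their direction. CD68 and the genes added after their values were seen were not run through the alternatives. For the brightest probe sets, leaving out each array gave log2 differences of 3.36 to 3.95 for NRP1, 2.23 to 3.12 for ANGPT1, 1.75 to 2.23 for ANGPTL4 and -1.10 to -0.99 for PROK1. Averaging all probe sets gave 1.70 for NRP1, 2.15 for ANGPT1 and 1.36 for ANGPTL4, which follows from their dimmer probe sets. By these averages ANGPT1, not NRP1, had the largest difference. Adding 32 gave -0.80 for PROK1. The counts of 18 higher and 8 lower pathway genes were 14 to 20 and 6 to 12 with an array left out, and 16 and 12 after repeated quantile normalization. With the replicate number as a block they were 19 and 8, and the NRP1 difference stayed at 3.66. Same-numbered arrays of the groups correlated in their deviations at -0.01 to 0.15, and arrays of different numbers at -0.20 to 0.16. These values cannot tell whether a number marks a shared animal or day, and the labels do not say. Over the named genes, 48 values of 10 genes lost the call, 5 of 4 genes gained it and 1185 kept their side. Signals below the array medians, such as NRP1 on 2 of 4 PM-GC arrays, limit the folds.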

Other observations

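Markers of theca and oocytes were also read. Of 6 theca markers 1 rose and 1 fell. The riser was STAR, which luteinizing granulosa cells express too (12.52 ± 0.65 in VVM-GC and 8.92 ± 0.62 in PM-GC, adjusted p = 0.000126). CYP17A1, the androgen-making enzyme of theca, fell by 0.47 from a low signal (adjusted p = 0.0303). That call was lost with averaged probe sets and without VVM-GC array 1, 3 or 4 or PM-GC array 2, 3 or 4 (adjusted p = 0.0558 to 0.289). Of 7 oocyte markers 1 rose: KIT, the receptor of KIT ligand, 8.39-fold (10.06 ± 0.68 in VVM-GC and 6.99 ± 0.44 in PM-GC, adjusted p = 0.000178). The egg coat genes ZP4 and ZP1 differed by 0.31 and -0.21 (adjusted p = 0.223 and 0.250).

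Among the granulosa markers WT1, a transcription factor, rose 15.4-fold (adjusted p = 9.14e-05), in 1 of its 2 probe sets, a log2 difference of 3.94 that was 2.04 with both averaged. CYP19A1, the aromatase, fell by 2.08, INHBB, an activin subunit, by 2.50, HSD17B1, which makes oestradiol, by 1.90, and NR5A2, a nuclear receptor, by 1.51. NR5A1, AMHR2 and AMH fell by 0.76, 0.98 and 0.68. The AMH call was lost without VVM-GC array 2 or PM-GC array 1 or 3 (adjusted p = 0.0527 to 0.0574).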
